A study of Rattus norvegicus with 15 samples.

Results

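Gene expression in the nucleus accumbens was compared between rats tested for cocaine seeking after 30 days of withdrawal (30C) and rats that had self-administered saline (Sal). The comparison used the 6 arrays whose sample titles carry these names, 3 of each, out of 15 arrays in 5 groups. All 11778 genes that had 1 platform symbol and lay above the dim end of the arrays were tested. All animals were male Sprague-Dawley rats of 250 to 350 g, with an intravenous catheter, trained in sessions of 6 h per day for 10 days. In 30C each infusion held 0.75 mg/kg of cocaine, and training was followed by 30 days of forced abstinence and then an extinction test. Sal rats pressed for saline under otherwise equal conditions, and their labels give neither a withdrawal time nor a test. Beside cocaine history, abstinence and the test may therefore have differed between 30C and Sal, and the 3 cannot be told apart in this contrast. The other groups had cocaine with 1 day (1W) or 30 days (30W) of withdrawal and no test, or 1 day of withdrawal and the test (1C). Whether 1 rat or a pool supplied the RNA of an array is not stated in the labels, so the p-values measure only the spread between these samples.

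The nucleus accumbens receives dopamine from the midbrain and glutamate from the cortex, and most of its neurons are medium spiny neurons, which release GABA. When such neurons are strongly driven, calcium and cAMP signals reach the nucleus within minutes and switch on immediate early genes such as Fos and the Egr and Nr4a families through the factors CREB and SRF, without new protein synthesis. Cue-induced cocaine seeking grows over weeks of abstinence, which is called incubation of craving. Slc17a7 encodes the vesicular glutamate transporter VGLUT1 of cortical neurons and is nearly silent in striatal neurons, and it serves as a marker of cortical tissue.

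Values are RMA log2 intensities, the logarithm of probe brightness after background correction and quantile normalization, and differences between groups are given on that log2 scale. The 6 arrays were alike as wholes, with pairwise correlations between 0.9929 and 0.9959 over all 28826 probe sets. Defining markers of medium spiny neurons were bright on all 6. Among the genes with a symbol on each array, Penk lay between the 99.4 and 99.7 percentile, Ppp1r1b between 98.4 and 99.2, and Drd2 between 96.3 and 98.3. Ttr, a choroid plexus marker, ranged from 5.86 to 8.83. The array medians were 6.91, 6.90 and 6.91 in Sal and 6.93, 6.96 and 6.93 in 30C.

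Slc17a7 differed widely between arrays of the same group. The Sal arrays read 7.16, 11.52 and 12.02 for replicates 1 to 3, and the 30C arrays 12.16, 10.94 and 9.23. Sal replicate 1 was the lowest and 30C replicate 1 the highest, a 31.9-fold range, and the groups overlapped over most of it. The means were 10.24 ± 2.67 (SD, n = 3) in Sal and 10.78 ± 1.47 (SD, n = 3) in 30C, a difference of 0.54 (exact two-sided permutation p = 0.8, where the smallest p this design allows is 0.1). A score over 24 other cortical neuron markers, each taken as its deviation from its mean over the 15 arrays, moved with it and read -0.52, 0.18 and 0.36 in Sal and 0.51, -0.06 and -0.30 in 30C. Because the arrays at both ends belong to the compared groups, each contrast below was also fitted with the Slc17a7 level of the array as a numeric term, and 30C against Sal also with the score of the 24 other markers in its place.

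**Figure D1:**
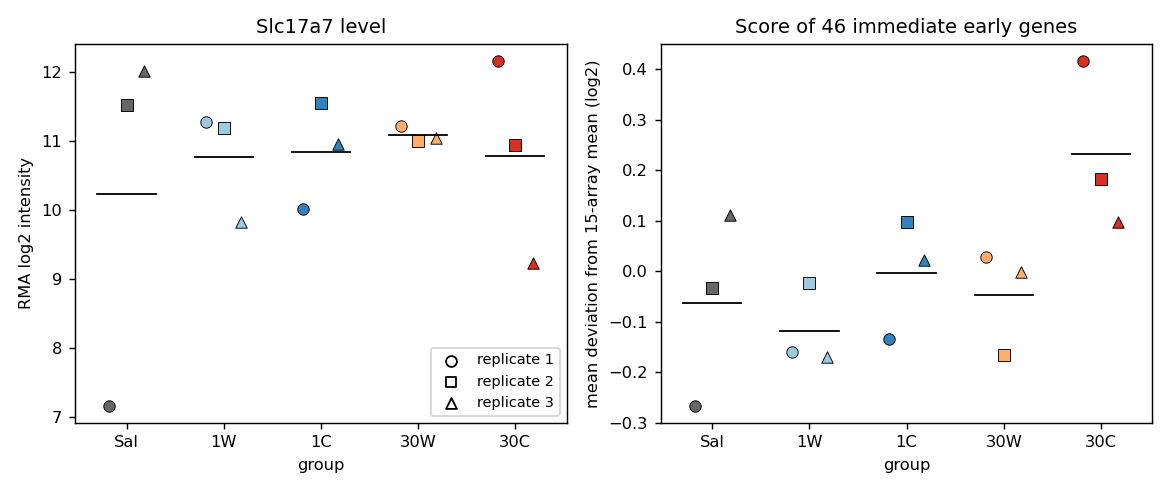
Slc17a7 level (left, RMA log2 intensity) and the score of 46 immediate early genes (right, mean log2 deviation from the 15-array mean) on every array, by group; circles, squares and triangles are replicates 1, 2 and 3, and bars are group means. Sal replicate 1 is lowest and 30C replicate 1 highest in both panels, while 30C replicates 2 and 3 reach scores of 0.18 and 0.10 at Slc17a7 levels of 10.94 and 9.23.

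No gene passed an adjusted p of 0.05 in 30C against Sal (0 of 11778, limma with Benjamini-Hochberg adjustment, 0%), and the smallest adjusted p was 0.218, for Klf2. At an unadjusted limma p under 0.05, 346 genes were higher in 30C (2.94%) and 250 were lower (2.12%). The 3 arrays of each group did not overlap for 507 genes that were higher (4.3%) and 484 that were lower (4.11%). The balance between directions depended on the scaling. Of the genes at an unadjusted p under 0.05, 58.1% were higher as deposited, 43.8% after a further quantile normalization and 27.9% after centring each array on its median. It also depended on brightness, since 168 of 2870 genes below the mean array median of 6.92 were higher (5.85%) and 71 lower (2.47%), against 178 (2.00%) and 179 (2.01%) of the 8908 brighter genes.

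The shifts between 30C and Sal were mostly the same with and without the Slc17a7 term. Of the 596 genes at an unadjusted p under 0.05, 545 (91.4%) kept their direction and stayed under 0.05 with the term in the limma fit. Among them were 320 of the 346 higher and 225 of the 250 lower genes. None of the 596 turned direction, 51 no longer reached 0.05, and 142 others newly did. The median share of the log2 change that was kept was 99.4%, with 88.9% at the 5th and 110% at the 95th percentile. Much of this was fixed in advance. The term moves a log2 change by the gene's slope times the Slc17a7 difference between the groups, which was only 0.54. Genes with a steep slope, such as Neurod6 (SE 0.89 without the term) and Cck (SE 0.75), could hardly be among the 596. The share kept is therefore a description and a weak test. With the term 389 genes were higher (3.3%) and 298 lower (2.53%), and 0 passed the adjusted threshold (smallest adjusted p = 0.216, Klf2). With the score of 24 cortical markers as the covariate instead, 3.38% of all genes were higher and 2.60% lower, 0 passed, and the smallest adjusted p was 0.116, for Nfil3. Slc17a7 itself tracked many genes: the slope on it had an adjusted p under 0.05 for 341 genes that increased with it (2.9%) and 134 that decreased (1.14%).

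The genes that the term moved most were ones with a steep slope on Slc17a7 and an unadjusted p well above 0.05 without it. Ccn3, a secreted matrix protein, went from a log2 change of 0.14 to -0.36. For Neurod6, a transcription factor of cortical pyramidal neurons, the pair of values was 0.22 and -0.24, and for Cck, the neuropeptide cholecystokinin, 0.27 and -0.12. Nr4a2 was the immediate early gene that the term moved most. Its levels were 7.39, 10.38 and 11.01 in Sal and 11.31, 10.20 and 8.28 in 30C, which follow the order of Slc17a7 array by array. Its log2 change of 0.34 (SE 0.88) became -0.10 with the term, and it had a slope of 0.81 per log2 unit of Slc17a7 (adjusted p = 0.000122). Nr4a2 is also a known marker of the deepest cortical layer and the claustrum, and it was on the cortical marker list as well.

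**Figure D2:**
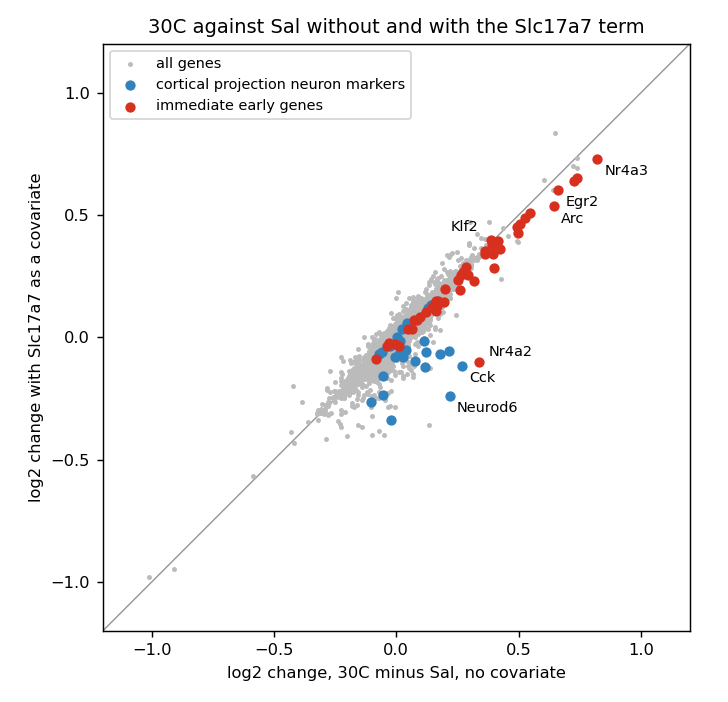
Log2 change, 30C minus Sal, without (horizontal) and with (vertical) the Slc17a7 term for every gene tested, with immediate early genes in red, cortical projection neuron markers in blue and the line of equality in grey. Immediate early genes lie near the line, Nr4a3 at 0.82 and 0.73, whereas Nr4a2, Cck and Neurod6 drop from above 0 to below it.

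The gene lists were chosen with earlier results of these data known, so their ranks and shares are descriptive. Among the 36 gene lists, the immediate early genes had the highest share of members that were higher in 30C. Of 46 measured members, 42 had a positive log2 change, 24 were higher at an unadjusted limma p under 0.05, and 0 were lower, where 2.94% of all genes were higher. Non-overlapping arrays were found for 23 members that were higher and for 1, Jund, that was lower. The median log2 change of the list was 0.28, against -0.01 over all genes tested. With the Slc17a7 term, all 24 stayed under 0.05, Ier5 joined them, and the median was 0.25. With the score of cortical markers as the covariate 28 of 46 were higher. In 11 members all 3 arrays of 30C lay above the 12 other arrays of the series, namely Fos, Fosl2, Junb, Egr2, Egr4, Nr4a1, Nr4a3, Klf2, Nfil3, Per1 and Sik1; 27 of all genes tested did so (0.229%), and 34 lay below all others (0.289%).

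Promoter sequence from RefSeq (assembly GRCr8) was at hand for 33 of the 46 members, as the 250 bases before the annotated start. TGACG on either strand, the core of the cAMP response element to which CREB binds, was found in 21 of the 33 (63.6%), against 26.3% of 9724 tested genes with a promoter in the table. The share was 58.8% of the 17 members that were higher with non-overlapping arrays and 68.8% of the other 16, among which Dusp1, Egr1, Ccn1 and Fosl1 were higher at an unadjusted p under 0.05 too. The full element, TGACGTCA, which holds the core site on both strands, was in 5 of 33 (15.2%, against 2.61%), 0 of them among the 17 and 5 among the other 16 (31.2%), and the CArG box of SRF in 5 of 33 (15.2%, against 1.16%). Such a match is a description of letters and not of binding. Of the 11 members above all other arrays, Fos, Klf2 and Nr4a3 had no promoter sequence at hand and were not searched. Among the others, 6 had this core site. The 3 of these with the largest log2 change are printed 5′ to 3′, with core sites and a CArG box in capitals, to show where they lie.
Nr4a1 (chr7:134259888-134260137, + strand): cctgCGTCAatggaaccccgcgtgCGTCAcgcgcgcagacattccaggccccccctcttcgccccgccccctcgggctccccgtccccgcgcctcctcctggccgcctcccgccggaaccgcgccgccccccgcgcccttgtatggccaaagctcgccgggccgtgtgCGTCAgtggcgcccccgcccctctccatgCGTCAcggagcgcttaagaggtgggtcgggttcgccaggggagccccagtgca
Egr2 (chr20:21054442-21054691, - strand): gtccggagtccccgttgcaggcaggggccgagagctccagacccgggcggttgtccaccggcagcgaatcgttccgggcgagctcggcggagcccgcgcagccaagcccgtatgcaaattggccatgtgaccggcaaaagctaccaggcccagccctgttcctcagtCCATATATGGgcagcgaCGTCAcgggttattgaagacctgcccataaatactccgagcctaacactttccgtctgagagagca
Egr4 (chr4:119607818-119608067, - strand): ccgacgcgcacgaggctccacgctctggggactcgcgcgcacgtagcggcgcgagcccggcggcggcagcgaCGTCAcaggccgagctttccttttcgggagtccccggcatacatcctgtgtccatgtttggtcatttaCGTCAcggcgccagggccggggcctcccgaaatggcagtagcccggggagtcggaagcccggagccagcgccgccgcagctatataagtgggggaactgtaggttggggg
In the Nr4a1 window 4 core sites were marked, in Egr4 2, and in Egr2 1 beside a CArG box.

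The AP-1 family encodes the Fos and Jun proteins, which pair to bind DNA. Fos read 7.40, 7.43 and 7.73 in Sal and 8.37, 7.89 and 7.83 in 30C, with a log2 change of 0.50 (SE 0.15, unadjusted p = 0.00574 by limma, adjusted p = 0.759). Its groups did not overlap, though 30C replicate 3 exceeded Sal replicate 3 by little. Fosl2 read 8.730, 8.956 and 9.204 in Sal and 9.524, 9.503 and 9.505 in 30C. Its log2 change was 0.55 (SE 0.11, adjusted p = 0.276) and 0.51 with the Slc17a7 term (adjusted p = 0.216). All 3 arrays of 30C were practically level and above every Sal array. Junb read 9.03, 9.17 and 9.47 in Sal and 9.86, 9.65 and 9.64 in 30C, a log2 change of 0.49 (SE 0.15). Atf3, a stress-induced partner of Jun, was dimmer, at 5.78, 5.84 and 5.86 in Sal and 6.11, 6.16 and 6.30 in 30C. Jund, which is expressed constitutively, had a log2 change of -0.08 (unadjusted p = 0.183).

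The Egr genes encode zinc-finger factors downstream of SRF. Egr2 read 7.14, 7.45 and 7.89 in Sal and 8.35, 8.11 and 8.01 in 30C, a log2 change of 0.66 (SE 0.18, adjusted p = 0.691) that was 0.60 with the Slc17a7 term. For Egr4 the Sal arrays gave 7.77, 7.88 and 8.17 and the 30C arrays 8.60, 8.50 and 8.30, a log2 change of 0.52 (SE 0.11, adjusted p = 0.362) and 0.49 with the term. In both genes the arrays of Sal were lowest in replicate 1 and those of 30C highest in replicate 1, which is also the order of Slc17a7 at the 2 ends. Egr3 lacked that order, with 10.04, 10.13 and 10.06 in Sal and 10.29, 10.42 and 10.39 in 30C, and its log2 change of 0.29 was the same with the term. Egr1, by far the brightest of the 4, overlapped between groups, at 11.34, 11.75 and 11.97 in Sal and 12.19, 12.11 and 11.94 in 30C.

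The Nr4a genes encode orphan nuclear receptors that are induced by cAMP. Among genes with non-overlapping groups, leaving out symbols that start with LOC, RGD, MGC, Olr, Vom or Mir, Nr4a3 had the largest positive log2 change. For Nr4a3 it was 0.82 (SE 0.23, adjusted p = 0.709 by limma), and 0.73 with the Slc17a7 term (SE 0.15, unadjusted p = 0.000411). Its levels were 7.91, 8.37 and 8.96 in Sal and 9.49, 9.22 and 8.99 in 30C, so that Sal replicate 3 and 30C replicate 3 were nearly equal. Nr4a1 read 8.89, 9.40 and 9.89 in Sal and 10.32, 10.01 and 10.03 in 30C, a log2 change of 0.73 (SE 0.24), of which 88.1% was kept with the term. The Sal spread in both genes (SD 0.53 and 0.50) was more than that of 30C (SD 0.25 and 0.18).

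The smallest unadjusted p-values of the list belonged to Klf2, Nfil3 and Sik1, which were tight rather than large. Klf2, a Krüppel-like factor studied mainly in endothelium and T cells, read 7.16, 7.13 and 7.02 in Sal and 7.51, 7.36 and 7.59 in 30C. Its log2 change was 0.39 (SE 0.06, unadjusted p = 3.26e-05 by limma), and 0.40 with the Slc17a7 term. Nfil3, a repressor that acts on clock-controlled genes, read 7.49, 7.52 and 7.62 in Sal and 8.14, 7.87 and 7.87 in 30C, a log2 change of 0.42 (SE 0.08, adjusted p = 0.218). Sik1, a kinase that is induced by CREB and restrains it, read 8.78, 8.88 and 8.92 in Sal and 9.38, 9.16 and 9.22 in 30C, a log2 change of 0.39 (SE 0.08). None of the 3 genes had a slope on Slc17a7 past the threshold (adjusted p = 0.667, 0.29 and 0.516), and in each the highest Sal array was below the lowest 30C array.

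Immediate early genes that act at the synapse were less clear-cut. Arc, which moves AMPA receptors out of the synapse, read 8.93, 9.63 and 10.00 in Sal and 10.52, 10.07 and 9.89 in 30C. The groups overlapped, the slope on Slc17a7 was 0.20 (adjusted p = 0.0207), and the log2 change of 0.64 was 0.54 with the term. Npas4, a factor induced selectively by calcium entry, had groups that did not overlap but a wide spread across the series. Its log2 change was 0.74 (SE 0.37, unadjusted p = 0.068), and 2 of the 3 untested 30W arrays read 9.78 and 9.66, within the range of 30C (9.46 to 10.15). Homer1 and Bdnf had log2 changes of 0.12 and 0.14 with overlapping groups, and that of Bdnf was 0.07 with the term. Among 29 later, activity-induced effector genes, 28 had a positive change and 8 were higher at an unadjusted p under 0.05, against 2.94% of all genes, with a median of 0.12 (0.10 with the term). Examples were Pim1, a survival kinase (0.31, SE 0.09), Plat, tissue plasminogen activator (0.31, SE 0.09), and Errfi1, an inhibitor of EGF receptor signalling (0.13, SE 0.05). These 3 genes were as high in 1C, where the log2 differences, 30C minus 1C, were -0.010, -0.004 and 0.009. The 30C and Sal arrays overlapped for Plat. Without Sal replicate 1 the median of this list was 0.05.

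**Figure D3:**
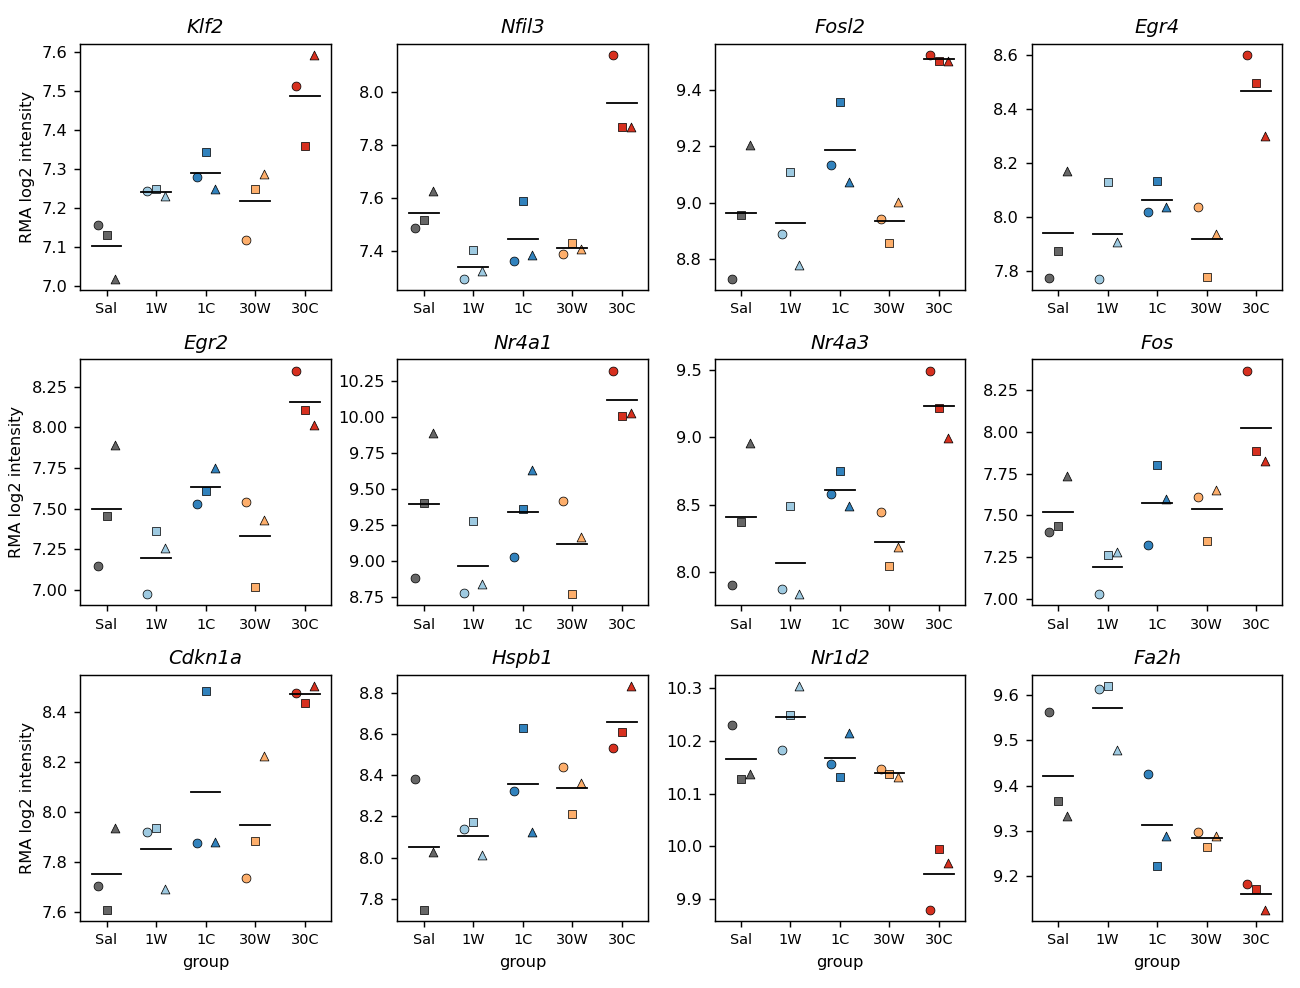
RMA log2 intensity of 12 named genes on all 15 arrays, by group; circles, squares and triangles are replicates 1, 2 and 3, and bars are group means. In the 8 immediate early genes of the upper 2 rows all 3 arrays of 30C lie above the 12 others, and for Nr1d2 and Fa2h in the bottom row all 3 lie below them.

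The count of immediate early genes depended on the 2 arrays at the ends of the Slc17a7 range. Without Sal replicate 1 it was 16 of 46, without 30C replicate 1 17, and without Sal replicate 2 or 3, or 30C replicate 2 or 3, 22, 27, 23 and 30. With the Slc17a7 term the same 6 omissions gave 26, 24, 20, 22, 26 and 19. Leaving out both extreme arrays together, a choice made after the data were seen, left 11 of 46 members higher, where 4.18% of all genes were higher at the same cut-off, and 14 with the term (4.25%). The list score over the 46 members was -0.27, -0.03 and 0.11 in Sal and 0.42, 0.18 and 0.10 in 30C, so that 30C replicate 3 and Sal replicate 3 were alike in it. Positive slopes on Slc17a7 past the adjusted threshold were found in 8 of the 46, against 2.9% of all genes. Of the 24 members at an unadjusted p under 0.05, 4 lay below the mean array median, against 8 of all 46.

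**Figure D4:**
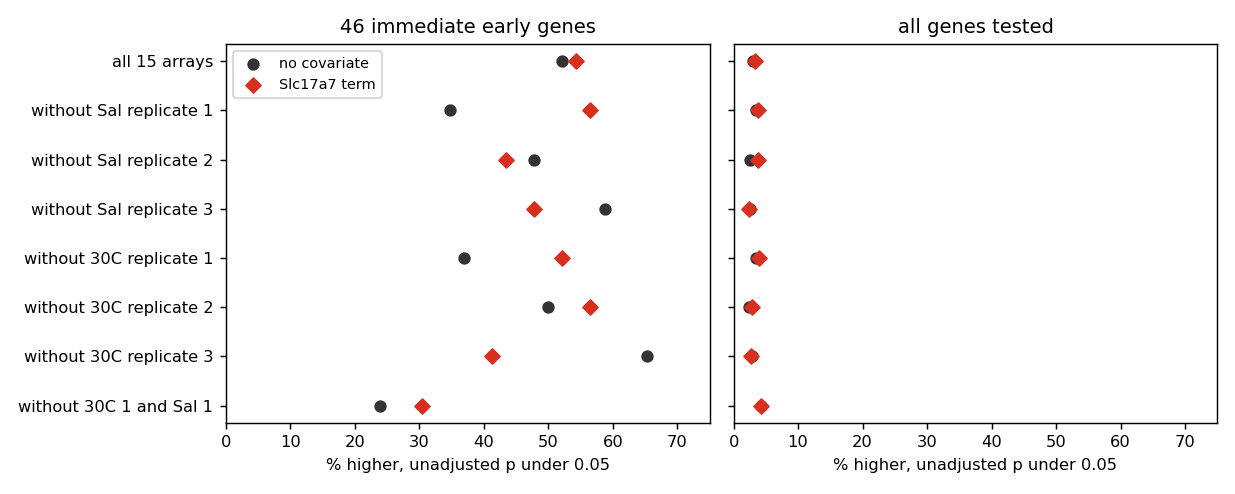
Percent of the 46 immediate early genes (left) and of all genes tested (right) that were higher in 30C at an unadjusted limma p under 0.05, with all arrays and after leaving out arrays, without (circles) and with (diamonds) the Slc17a7 term. The list stays above the background in each row, down to 11 of 46 without both 30C replicate 1 and Sal replicate 1, against 4.18% of all genes. It was chosen with earlier results of these data known.

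The untested rats of the same withdrawal, 30W, gave a comparison that shares the 30C arrays but no saline control, so its values stand beside those above and are not independent of them. In 30C against 30W, 249 genes were higher at an unadjusted p under 0.05 (2.11%), and 18 of the 46 immediate early genes were among them; with the replicate number as a block it was 17 of 46 (2.11% of all genes). Against the 1C arrays it was 19 of 46, where 2.41% of all genes were higher. No gene passed the adjusted threshold against 30W (smallest adjusted p = 0.0761) or against 1C (0.152). With the Slc17a7 term 3 genes passed against 30W (0.0255% of all genes), and these were immediate early genes. They were Nfil3 with a log2 change of 0.56 (SE 0.07, adjusted p = 0.0178), Fosl2 with 0.60 (SE 0.09, adjusted p = 0.0434) and Nr4a3 with 1.06 (SE 0.15, adjusted p = 0.0434). In 30W these genes read 7.39, 7.43 and 7.41 for Nfil3, 8.942, 8.858 and 9.004 for Fosl2, and 8.45, 8.05 and 8.19 for Nr4a3, all below the lowest 30C array. These 3 calls were not stable. With the replicate number as a block beside the term 0 genes passed. The adjusted p was 0.0572 for Nfil3, 0.0673 for Fosl2 and 0.0736 for Nr4a3. The log2 changes stayed at 0.56, 0.60 and 1.06. The SEs rose from 0.0675 to 0.0720 for Nfil3, 0.0853 to 0.0886 for Fosl2 and 0.153 to 0.164 for Nr4a3. Same-numbered 30C and 30W arrays deviated together only weakly (correlations of 0.10, 0.16 and 0.15). The loss of the calls with the block therefore does not show that the numbers paired these arrays. None of the 3 passed either without 30C replicate 1 or 3, or without any 1 of the 30W arrays, and Nfil3 alone without 30C replicate 2.

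Genes induced by glucocorticoids, the adrenal stress hormones, formed a further list. It is not separate from those above, since Per1, for example, is also on the immediate early gene list. Of 31 measured members, 8 reached an unadjusted p under 0.05 upward and 0 downward, 13 had non-overlapping groups in the upward direction, against 2.94% and 4.3% of all genes, and the median log2 change was 0.13, with and without the Slc17a7 term. Cdkn1a, the cell-cycle inhibitor p21, read 7.70, 7.61 and 7.94 in Sal and 8.48, 8.44 and 8.51 in 30C, a log2 change of 0.72 (SE 0.16, adjusted p = 0.362) and 0.70 with the term. Pdk4, which switches mitochondria away from glucose, had a log2 change of 0.64 (SE 0.20), Sgk1, a kinase regulating ion channels, 0.46 (SE 0.14), and Ddit4, an inhibitor of mTOR, 0.21 (SE 0.06), each with groups that did not overlap. Fkbp5, the glucocorticoid receptor co-chaperone and a standard readout of the hormone, overlapped, at 8.39, 8.47 and 8.24 in Sal and 8.34, 8.54 and 8.59 in 30C. Against 30W the list median was 0.01, and 1 array of 1C read 8.49 for Cdkn1a and 8.40 for Pdk4, as high as 30C. Without 30C replicate 1 and Sal replicate 1, 3 of the 31 were higher, where 4.18% of all genes were.

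Heat shock genes and chaperones, which refold damaged proteins, were higher in 5 of 37 cases at an unadjusted p under 0.05, against 2.94% of all genes, with a list median of 0.03. The small heat shock protein Hspb1 stood out, at 8.38, 7.75 and 8.03 in Sal and 8.53, 8.61 and 8.83 in 30C. Its log2 change was 0.61 (SE 0.15, adjusted p = 0.6), and 0.65 with the Slc17a7 term (SE 0.13, adjusted p = 0.257). Its arrays ran opposite to Slc17a7, with Sal replicate 1 highest in Sal and 30C replicate 1 lowest in 30C, as did those of its partner Bag3 (0.24, and 0.27 with the term) and the endoplasmic reticulum chaperone Hspa5 (0.24 and 0.27). Among 23 unfolded protein response genes 3 were higher (Hspa5, Calr and Xbp1), and 5 with the term, against 2.94% and 3.3% of all genes.

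Of 17 clock genes, 1 was higher, Nfil3, and 2 were lower at an unadjusted p under 0.05, against 2.12% of all genes. The 2 were Nr1d1 and Nr1d2, which encode the REV-ERB receptors, repressors of Bmal1. Nr1d2 read 10.23, 10.13 and 10.14 in Sal and 9.88, 9.99 and 9.97 in 30C, a log2 change of -0.22 (SE 0.05, adjusted p = 0.362) and -0.20 with the Slc17a7 term. Nr1d1 read 10.30, 10.42 and 10.23 in Sal and 10.08, 10.12 and 10.12 in 30C, a log2 change of -0.21 (SE 0.07). In both genes the 3 arrays of 30C lay below all 12 others. Dbp, a further output gene of the clock, had a log2 change of -0.17 (unadjusted p = 0.0527) with overlapping groups. Per1 read 9.77, 9.91 and 9.96 in Sal and 10.02, 10.10 and 10.00 in 30C, a log2 change of 0.16 (unadjusted p = 0.0505). The labels place the experiments in the dark phase, and the hour of collection for each array was not given in the sources used here.

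Most oligodendrocyte markers had negative values. Of 32 oligodendrocyte markers 29 had a negative log2 change, 4 were lower at an unadjusted p under 0.05, 8 had non-overlapping groups in the downward direction (2.12% and 4.11% of all genes), and the median was -0.09 with and without the Slc17a7 term. Fa2h, which makes the hydroxylated lipids of myelin, read 9.56, 9.37 and 9.33 in Sal and 9.18, 9.17 and 9.13 in 30C, a log2 change of -0.26 (SE 0.07, adjusted p = 0.661), and lay below all 12 other arrays. Cnp and Mag, both myelin proteins, had log2 changes of -0.20 and -0.21, with Sal replicate 1 the highest array in each. Without Sal replicate 1, 2 of the 32 were lower (2.19% of all genes), without Sal replicate 3 10 (3.40%), without 1W replicate 3 8 (2.17%), and after median centring 9 (4.30%). Without both Sal replicate 1 and 30C replicate 1 it was 2 of 32, where 6.65% of all genes were lower. In these bulk samples fewer cells of a type and less RNA per cell cannot be told apart. Among 15 precursor markers Vcan (-0.21) and Gpr17 (-0.21) were lower and Matn4 (0.12) was higher, against 2.12% and 2.94% of all genes. Groups overlapped for Gpr17, and Matn4 was dim, at 5.85 to 6.05 over the 6 arrays. Vcan was nearly as low in untested 30W, where the log2 difference, 30C minus 30W, was -0.04. Of 34 microglial markers 1 was lower, the Toll-like receptor homologue Cd180 at -0.25 (SE 0.08), and groups did not overlap for 5 that were lower, among them the fractalkine receptor Cx3cr1 at -0.11, and for 2 that were higher (4.11% and 4.3% of all genes). The 2 were the complement genes C1qb, at 0.17 (unadjusted p = 0.121), and C1qc, at 0.16.

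Neuronal identity genes gave few calls. Of 31 medium spiny neuron markers an unadjusted p under 0.05 was reached by 0 in either direction, with a median log2 change of -0.03, and 0.00 with the Slc17a7 term. Drd1, the D1 dopamine receptor, read 10.03, 10.16 and 9.81 in Sal and 9.54, 10.20 and 10.16 in 30C, and Penk, the enkephalin precursor, 12.62, 12.71 and 12.59 against 12.39, 12.71 and 12.77. In both the lowest array was 30C replicate 1, the one with the most Slc17a7, and the score of the whole list was -0.39 there against 0.06 and 0.12 on the other 30C arrays. Of 30 cortical projection neuron markers 1, Egr3, was higher, against 2.94% of all genes. In 16 the slope on Slc17a7 was positive and past the adjusted threshold, against 2.9% of all genes. The list median went from 0.05 to -0.06 with the term. The mean deviation of these 30 markers from their 15-array means ranged over arrays from -0.75 to 0.43 in Sal and from -0.40 to 0.59 in 30C. Of 9 cholinergic interneuron markers 1 was higher without the term and 3 with it, against 2.94% and 3.3% of all genes. The list median went from 0.13 to 0.20. Slc18a3, the vesicular acetylcholine transporter, went from 0.38 (unadjusted p = 0.122) to 0.47 (unadjusted p = 0.00972), and Slc5a7, the choline transporter, from 0.30 to 0.38 (unadjusted p = 0.0272). Groups overlapped for both Slc18a3 and Slc5a7, which reached 0.05 only with the term. Tbx3, the third of these to reach 0.05, was at 0.20 in both fits. Receptors and channels lay near the background, with 0 of 31 AMPA, NMDA and metabotropic glutamate receptor genes, 0 of 19 GABA genes and 0 of 25 postsynaptic scaffold genes under 0.05 in either direction, and 1 of 40 dopamine and cAMP signalling genes higher. Astrocyte, endothelial, meningeal and blood cell markers likewise had 0 higher and 0 lower of 25, 33, 23 and 6, and of 20 choroid plexus and ependymal markers 1 was higher.

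**Figure D5:**
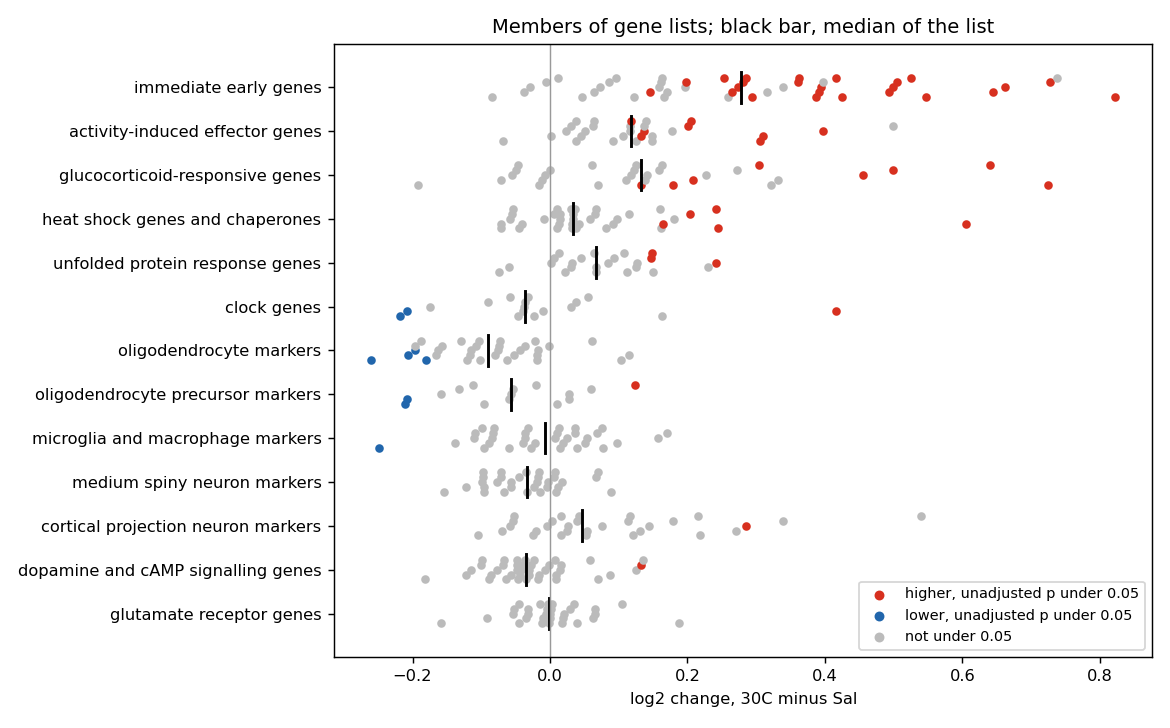
Log2 change, 30C minus Sal, of each measured member of 13 gene lists; points are genes, red and blue points have an unadjusted limma p under 0.05 (higher and lower), and black bars are list medians. The immediate early genes extend furthest to the right, with a median of 0.28, while oligodendrocyte markers lie mostly left of 0, with a median of -0.09, and medium spiny neuron markers around it. Lists were chosen with earlier results of these data known.

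The remaining genes with the smallest unadjusted p-values were of mixed function. Of the 24 taken (12 in each direction), 5 lay below the mean array median, where a difference is least certain, as did 2870 of all 11778 genes tested. Among the brighter ones Cited2, a co-regulator that binds CBP and p300, read 10.30, 10.32 and 10.36 in Sal and 10.62, 10.54 and 10.53 in 30C, a log2 change of 0.24 (SE 0.04, adjusted p = 0.218). Fam43a was at 0.40 (SE 0.07), Fgf4, a growth factor, at 0.34 (SE 0.07), and Jph2, a junctophilin that links the plasma membrane with calcium stores, at 0.44 (SE 0.09). Fgf4 and Jph2 were as high in 30W, where the log2 difference from 30C was 0.03 in each. Itgb7, an integrin, and Trim72, a membrane-repair protein, were dim, with levels of 5.71 to 6.17 and 5.86 to 6.09 over the 6 arrays.

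On the lower side, Zfp39, a zinc-finger gene, read 8.85, 8.82 and 8.82 in Sal and 8.50, 8.53 and 8.63 in 30C, a log2 change of -0.28 (SE 0.05, adjusted p = 0.218), and the zinc-finger gene Zfp2 was at -0.29 (SE 0.08). Ppm1g, a nuclear protein phosphatase, was at -0.25 (SE 0.05), and Rpl27a, a ribosomal protein, at -0.16 (SE 0.04), at levels of 10.50, 10.46 and 10.51 against 10.32, 10.35 and 10.33. Tmem88b, a membrane protein, was at -0.24 (SE 0.06). Among the genes ranked for naming, the olfactory receptor gene Or8c19 had the smallest p of this direction (-0.59, SE 0.10, unadjusted p = 7.37e-05 by limma). It lay at levels of 5.81 to 6.66, dim on all 6 arrays. The largest negative changes with non-overlapping groups in that ranking, beside that of Or8c19, were those of Kng2l1 (-1.01, SE 0.38) and Kng1 (-0.42, SE 0.16). Both are kininogen genes, and whether their probes share signal was not tested. Kng2l1 was at the dim end, at 6.04, 5.37 and 5.99 in Sal and 5.28, 4.70 and 4.39 in 30C. The 25th percentile of the 30C arrays lay between 5.53 and 5.59. Among the largest positive changes were Lrg1, a secreted glycoprotein (0.74, SE 0.26), and Apold1, an endothelial early-response gene (0.74, SE 0.24). Lrg1 was higher still in 1C (7.31 to 8.08), while Apold1 read 5.55, 5.72 and 5.54 in Sal and 6.24, 6.38 and 6.41 in 30C, with 1 array of 1C above it at 6.63.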

How the data were processed

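RNA from the nucleus accumbens was hybridised to Affymetrix rat arrays, one for each sample. The values in the deposited table are log2 intensities. They had been made by the authors using RMA (version not stated), according to the submitters' processing notes. RMA quantile-normalizes the arrays, so a shift shared by most genes cannot be seen. Of 28826 probe sets, the platform annotation gave 15209 with 1 symbol, 306 with several and 13311 unnamed here. Each of 14497 genes was represented by its brightest probe set (494 had more than 1), and the 11778 that exceeded the array's 30th percentile on 3 or more arrays were tested. Symbols were checked by Entrez ID against RefSeq GRCr8, where 15178 probe sets matched.

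One linear model over all 15 arrays (lmFit and eBayes of limma 3.58.1, run in R 4.3.3, with group as the only term, 10 residual and 3.44 prior degrees of freedom) gave each contrast, two-sided, with Benjamini-Hochberg adjustment over all genes and a threshold of 0.05. A second fit added the Slc17a7 level of each array (9 residual degrees of freedom). The fit was checked on simulated data. Gene lists, 36 in number, are described by counts and medians with no set test. The genes named are those with the smallest p or largest log2 change and non-overlapping groups in each direction. Symbols starting with LOC, RGD, MGC, Olr, Vom or Mir were left out of that ranking. Also named are those with the smallest p with the Slc17a7 term, leading list members, and a fixed set. Ppp1r1b and Ttr were given as tissue markers. Jund, Atf3, Ccn3, Neurod6, Cck, Ier5, Ccn1, Fosl1 and C1qc were named after their values were seen. Members and lists were chosen with earlier results of these data known. Alternatives covered normalization, filter, probe set, variance model, array weights, arrays fitted, covariate, threshold, replicate number as a block and leaving out arrays. Same-numbered 30C and Sal arrays did not deviate together (correlations of -0.51, 0.02 and -0.63). Slc17a7, however, rose with the replicate number in Sal and fell with it in 30C. The array highest in Slc17a7 in 30C correlated with the highest in Sal at 0.55, and the lowest with the lowest at 0.60. These correlations therefore cannot show whether the numbers paired 30C and Sal arrays. Same-numbered 30C and 30W arrays deviated together weakly (0.10, 0.16 and 0.15), and the block is given beside that contrast. With 3 arrays in each group, precision is limited.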

Additional observations from a re-analysis of the deposited data

How the results depend on the processing

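No gene passed the adjusted threshold in 30C against Sal under any alternative tried, with or without the Slc17a7 term, and with all arrays none did at an adjusted p under 0.10. The smallest adjusted p over the alternatives lay between 0.0601 (without 1C replicate 2) and 0.708 without the term, and between 0.0712 and 0.695 with it. With the replicate number as a replicate block the count was also 0, with 26 of 46 immediate early genes higher (27 with the term). The count of higher immediate early genes ranged from 16 to 30 when 1 array was left out (19 to 27 with the term), and was 11 (14 with the term) when 30C replicate 1 and Sal replicate 1 were left out together, an alternative chosen after seeing the data. That omission gave 3 higher glucocorticoid-responsive genes (6 to 12 when 1 array was left out) and 2 of 32 oligodendrocyte markers that were lower (2 to 10), where 6.65% of all genes were. Median centring gave 9 lower oligodendrocyte markers. In 30C against 30W, 1 gene passed when arrays were weighted, 1 when the adjusted threshold was 0.10, 3 with Slc17a7 as a covariate, and 0 to 1 when 1 array was left out. With that covariate the 3 became 0 with the replicate block or only the arrays compared, 1 with a further quantile normalization, no filter or the probe set with the smallest mean, 7 at an adjusted p under 0.10, and 0 to 9 when 1 array was left out (9 without 1W replicate 1); these alternatives with the covariate were chosen after seeing the data. The cause of these moves was not tested.

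Among the named genes, those whose sign turned all had overlapping groups. With array weights the log2 change was -0.44 for Nr4a2, -0.026 for Bdnf, -0.46 for Slc17a7, -0.66 for Neurod6, -0.41 for Cck, -0.83 for Ccn3, 0.0037 for Drd1 and 0.016 for Penk. With the Slc17a7 term it was -0.10 for Nr4a2, -0.24 for Neurod6, -0.12 for Cck, -0.36 for Ccn3, 0.0052 for Drd1 and 0.000598 for Penk. When 1 array was left out, the log2 change ranged from -0.76 to 1.16 for Nr4a2, -0.028 to 0.23 for Bdnf, -0.996 to 1.43 for Slc17a7, -0.98 to 0.92 for Neurod6, -0.73 to 0.92 for Cck, -1.24 to 0.91 for Ccn3, -0.15 to 0.18 for Drd1 and -0.094 to 0.099 for Penk. Leaving out Sal replicate 1 or 30C replicate 1 turned the sign in Nr4a2, Bdnf, Slc17a7, Neurod6, Cck and Ccn3, and leaving out Sal replicate 2 or 30C replicate 1 turned it in Drd1 and Penk.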

Other observations

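Enzymes that write or erase chromatin marks gave few but tight values in 30C against Sal. Kdm6b, which removes methyl groups from lysine 27 of histone H3, read 8.14, 8.15 and 8.11 in Sal and 8.33, 8.36 and 8.26 in 30C. Its log2 change was 0.18 (SE 0.05, unadjusted p = 0.00209 by limma, adjusted p = 0.691), equal with the Slc17a7 term, and all 3 arrays of 30C lay above the 12 others. Hdac4, a histone deacetylase that leaves the nucleus on calcium signals, read 8.21, 8.19 and 8.25 in Sal and 8.46, 8.32 and 8.27 in 30C (0.13, SE 0.06), and was also above all others. Sirt2, a deacetylase abundant in myelin, was at -0.15 (SE 0.06) and Ehmt2, a methyltransferase for lysine 9 of histone H3, at -0.13 (SE 0.06), both with groups that did not overlap. Gadd45b and Gadd45g, linked to active DNA demethylation and counted among the immediate early genes too, were at 0.27 (SE 0.07) and 0.25 (SE 0.08). Of 16 histone deacetylases, 1 reached an unadjusted p under 0.05 upward and 1 downward, and the same held for 1 and 1 of 29 histone acetyl- and methyltransferases, near the background of 2.94% and 2.12%. Among 38 inflammatory and interferon genes 3 were higher, 24 of the 38 being below the mean array median. Oasl read 6.16, 6.21 and 6.19 in Sal and 6.43, 6.57 and 6.26 in 30C, but 6.48, 6.32 and 6.49 in untested 30W rats.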
